A study of Mus musculus with 2 samples.

Results

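The naive-like CD4 T cells of the spleen are those that carry T cell receptor genes but neither the killer cell co-receptor nor the genes of effector helper cells. They were chosen by their own RNA. A barcode, the tag that stands for the contents of 1 droplet, was a member with at least 1 UMI of *Cd3e*, none of *Cd8a* or *Cd8b1* and at least 2 of *Il7r* and *Lef1* together. A UMI is a tagged RNA molecule, counted once. A member also had fewer than 2 UMIs of the follicular helper genes *Izumo1r*, *Sostdc1*, *Tbc1d4* and *Cxcr5* summed, and fewer than 2 of the Th1 and effector genes *Cxcr6*, *Il18r1* and *Ccl5* summed. It had no UMI of *Foxp3*, *Klrb1c*, *Cd79a* or *Csf1r* and at most 1 of *Lyz2*. The rule left 178 of 14821 barcodes in PEP-WT and 57 of 8576 in PEP-619WW, 235 of 23397 in all.

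PEP-WT mice carry the wild type *Ptpn22* gene, and PEP-619WW mice carry the mutant allele, labelled 619 WW, that puts tryptophan in place of an arginine of the encoded phosphatase PEP. Per the study, both are C57BL/6 mice infected with the chronic virus strain LCMV-cl13, and their spleens were taken on day 8. The study describes droplet libraries of 3' gene counts from live CD45+ cells, pooled from 4 to 5 mice per genotype, and no uninfected library was analysed here. Each genotype has 2 deposited runs, the barcode numbers that the study's methods give are those of the second run and not of the run described here, and no source used here states how the runs relate. The sample labels name liver, tumor infiltrating cells and Jurkat, a human T cell line. The files hold mouse genes because the reads were counted on the mouse genome mm10, so the gene names alone do not settle these labels. The counts show a mix of cell types, which 1 T cell line would not give. The B cell gene *Cd79a* was found without *Cd3e* in 8400 barcodes for PEP-WT, out of 14821, and in 4473 for PEP-619WW, out of 8576. *Cd3e* itself was found in 15.9% and 17.1%. Whether the cells came from spleen, liver or tumor was not tested. Species and tissue are taken from the study. Because mice were pooled and each genotype is 1 library of the run used, no difference below has a replicate check and no p-value is given. All intervals are at the 95% level and cover counting error only.

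Naive CD4 T cells circulate between blood and lymphoid organs until they meet antigen. The receptor for interleukin-7, encoded in part by *Il7r*, keeps them alive, and the transcription factors encoded by *Lef1*, *Tcf7*, *Klf2* and *Satb1* hold their resting program and their homing genes, among them *Ccr7* and *S1pr1*. During a virus infection they are also exposed to type I interferon, which acts through transcription factors that include STAT2 and IRF9 on genes such as *Isg15* and *Ifit3*, whether or not the cell has met antigen. PEP, the product of *Ptpn22*, removes activating phosphates from kinases next to the T cell receptor.

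The label was checked on genes the rule did not use. *Cd4*, the co-receptor that defines helper T cells, was detected in 50 of 178 PEP-WT members (28.1%) and 21 of 57 PEP-619WW members (36.8%). After each barcode was thinned to 1500 UMIs, the shares were 18.2% and 17.6%. In naive-like CD8 barcodes, which fit the same clauses but carry *Cd8a* or *Cd8b1*, the thinned *Cd4* shares were 1.40% in PEP-WT and 0 of 20 in PEP-619WW (exact upper limit 16.8%). In barcodes with *Cd79a* and no *Cd3e*, which should lack the gene, *Cd4* was found in 0.738% and 0.827% before thinning, at median depths of 2703 and 3284 UMIs. *Cd4* RNA was thus not detected in most members at this depth, which does not show its absence. Its share was still far above that in barcodes with *Cd79a* and no *Cd3e*. *Cd3d*, a subunit of the receptor complex, was detected in 92.7% and 91.2% of members, and *Trac*, its constant alpha chain, in 66.9% and 77.2%. *Tcf7* was found in 73.0% and 71.9%, and *Ccr7* in 39.3% and 49.1%, though *Ccr7* stood at 238 CPM in both. The shares from *Cd3d* on are before thinning, and PEP-619WW members were deeper, at a median of 3009 UMIs against 2261.5. *Cd44*, which marks cells that have met antigen, was found in 3.93% and 8.77%, the inhibitory receptor gene *Pdcd1* in 2.25% and 3.51%, and the cytotoxic granule gene *Nkg7* in 2.81% and 3.51%. *Trdc*, of gamma delta T cells, had UMIs in 5 of 178 and 0 of 57 members, and *Zbtb16*, of innate-like T cells, in none of either. Genes of other helper T cells were found in more members. *Ikzf2* and *Ctla4*, of regulatory T cells, were found in 5.62% and 4.49% of PEP-WT members and in 12.3% and 14.0% of PEP-619WW members, and *Gata3*, of Th2 cells and also of naive ones, in 12.4% and 7.02%. These too are shares before thinning, at unequal depth. The regulatory T cell list without *Foxp3*, which the rule bars, had 109 and 64 UMIs, a log2 ratio of PEP-619WW over PEP-WT of 0.69 (0.22 to 1.15), and its part in the results was not tested.

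**Figure D1:**
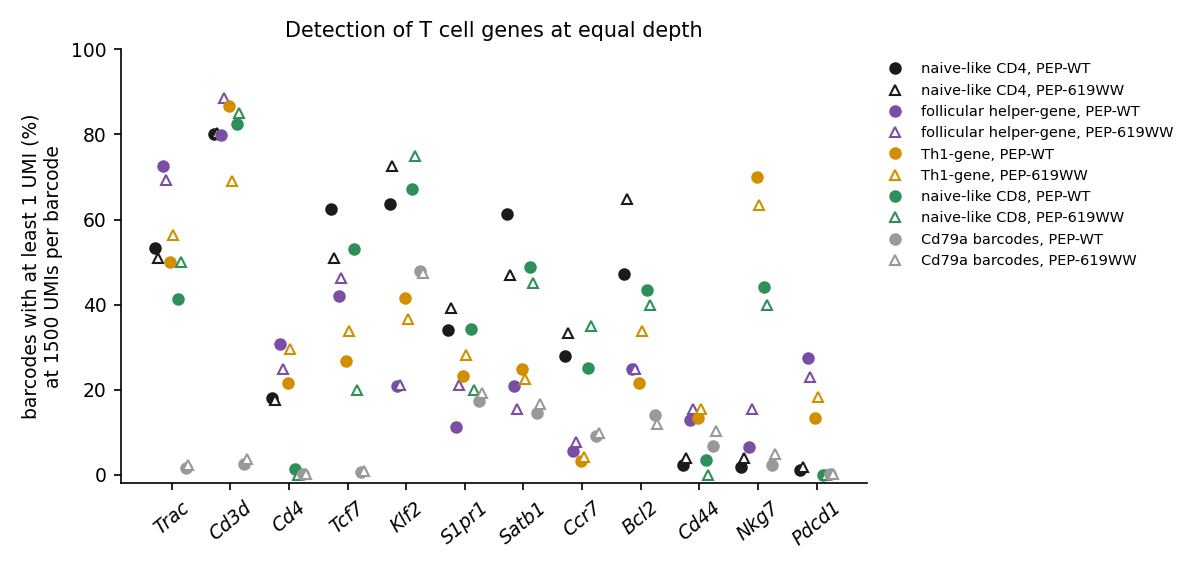
Share of barcodes with at least 1 UMI of each T cell gene (vertical axis, percent) after thinning to 1500 UMIs, for the naive-like CD4 members and the comparison gates of each genotype (circles PEP-WT, triangles PEP-619WW). The naive-like CD4 points for *Cd4* sit at 18.2% and 17.6%, above the naive-like CD8 points.

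Members that stood apart in depth, and UMIs of other cells' genes in the members, are given before the values that follow. The median depth of members was 2261.5 UMIs for PEP-WT and 3009 for PEP-619WW, against 2832 and 3293 over all barcodes of the 2 libraries, and they held 462308 and 167970 UMIs in all. Their mitochondrial shares were 1.95% and 2.03%. Of the PEP-WT members, 3 exceeded 10000 UMIs and none of the PEP-619WW members did, the deepest of which had 6546. The deepest PEP-WT member had 33855 UMIs, 7.32% of all UMIs of its group, and with 257 of *Mpo*, 185 of *Prtn3* and 146 of *Ctsg* it carried the granule genes of myeloid precursors beside 1 UMI of *Cd3e*. Another had 80 UMIs of *S100a4*, and a PEP-WT member of ordinary depth held 877 hemoglobin UMIs among its 2602. Values without the 3 deep members are therefore given beside the main results. *Igkc*, the light chain gene of B and plasma cells, was detected in 93.3% and 98.2% of members, at 1460 and 1810 CPM, UMIs per 1000000 UMIs of the summed barcodes, which is 2.92% and 2.49% of its levels in the whole libraries of 50085 and 72635. The summed B cell list stood at 2306 and 2578 CPM in members, with 14 of 14 and 12 of 14 genes detected and *Ighd* among those at 0 in PEP-619WW. The myeloid list stood at 463 and 405 with *Cd68* at 0 in both, the neutrophil list at 294 and 262 with *Ly6g* at 0 in both, and the erythroid list at 2405 and 113. No barcode was shared between the members of the 2 libraries, and 39 were shared between the whole libraries.

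Naive-like CD4 members were a smaller share of the PEP-619WW library in the run used. In PEP-WT they made up 1.20% of the library (1.03 to 1.39) and in PEP-619WW 0.665% (0.504 to 0.860), a difference in percentage points of −0.536 (−0.784 to −0.278). Barcodes with *Cd3e* as such did not show the same order, at 15.9% in PEP-WT and 17.1% in PEP-619WW. Of the *Cd3e* barcodes without *Cd8a* or *Cd8b1*, 835 in PEP-WT and 466 in PEP-619WW, the members were 21.3% (18.6 to 24.3) and 12.2% (9.40 to 15.6), a difference of −9.09 points (−13.2 to −4.78). A rule that counts UMIs depends on depth, so it was applied again after thinning to 1500 UMIs. It then found 116 of 12718 barcodes (0.912%) for PEP-WT and 40 of 6717 (0.596%) for PEP-619WW, a difference of −0.317 points (−0.565 to −0.050). Over 20 further draws of the thinning, which reuse the same barcodes, the difference ranged from −0.552 to −0.192. Thinning also removes UMIs of the genes that bar a barcode, *Cd8a* and *Cd8b1* among them. Whether it let other cells into the naive-like CD4 gate was not tested. With all UMIs and a *Cd4* UMI required of each member, the difference was −0.0925 points (−0.235 to 0.0632), an interval that includes 0. In the second run the order was the other way, with 0 members in PEP-WT and 0.653 points more (0.506 to 0.821) in PEP-619WW. Only 72 of the 9539 PEP-WT barcodes of that run had *Cd3e*.

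The clauses of the rule removed members unequally. After *Cd3e* and the *Cd8* genes, 835 PEP-WT and 466 PEP-619WW barcodes were left. The clause on *Il7r* with *Lef1* kept 339 and 187 of them, a similar share in both libraries. The lower share of members in PEP-619WW thus arose at the later clauses. The clause on follicular helper genes kept 271 and 108 of the 339 and 187, and the clause on Th1 genes then kept 231 and 68. The remaining clauses, of which *Cd79a* removed the most, led to 178 and 57. For comparison, a follicular helper-gene gate took barcodes with 2 or more UMIs of the follicular helper genes, and a Th1-gene gate those with 2 or more of the Th1 genes. Neither asked for *Il7r* or *Lef1*, and each kept the other clauses. They held 127 and 53 barcodes (0.857% and 0.618% of each library) and 71 and 81 barcodes (0.479% and 0.944%). The naive-like CD8 gate, with every clause kept but that on the *Cd8* genes, held 146 and 20 (0.985% and 0.233%). *Il7r* was found in 12.6% of PEP-WT barcodes of the follicular helper-gene gate and 28.2% of the Th1-gene gate, against 83.1% of naive-like CD4 members, and *Ikzf2* in 73.2%, 23.9% and 5.62%. Naive-like members were thus 47.3% of the 3 gates without *Cd8* genes in PEP-WT and 29.8% in PEP-619WW, a difference of −17.5 points (−25.7 to −8.79). After thinning, the Th1-gene shares were 0.818% and 1.82%, above those with all UMIs, and the follicular helper-gene shares 0.480% and 0.462%, below them. The Th1-gene gate grew from 71 to 104 barcodes in PEP-WT and from 81 to 122 in PEP-619WW. Thinning thus admitted barcodes that the other clauses of that gate had barred. These shares follow from the genes that chose the members and from a sort of 1 pooled sample per genotype, and are given as a description.

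**Figure D2:**
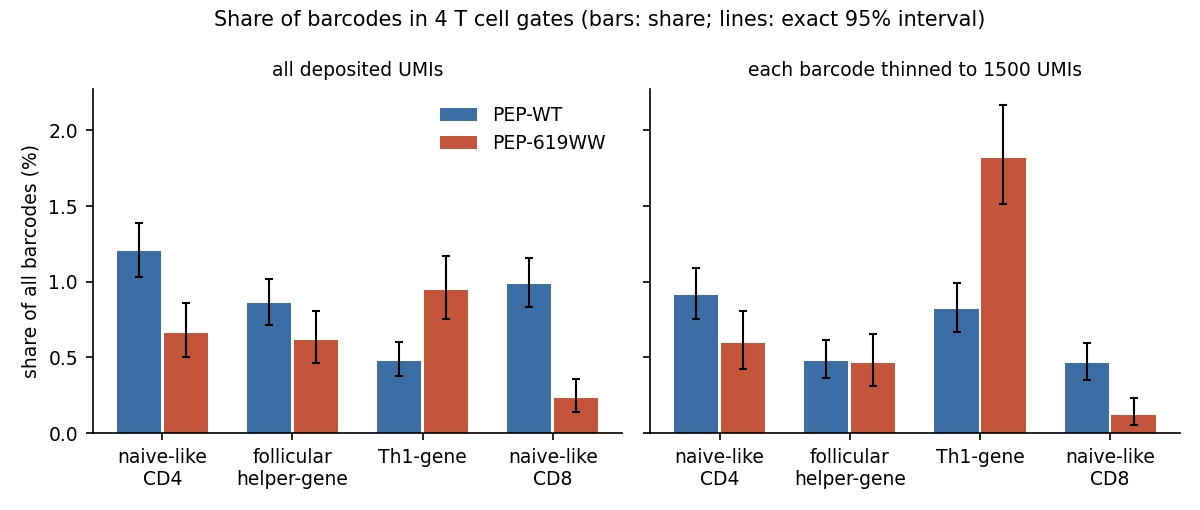
Share of all barcodes (bars, percent, with exact binomial intervals) in each of 4 T cell gates in PEP-WT and PEP-619WW, with all UMIs on the left and after thinning to 1500 UMIs on the right. On the left, the naive-like CD4 and CD8 shares were lower in PEP-619WW (0.665% against 1.20%, and 0.233% against 0.985%), and the Th1-gene share was higher (0.944% against 0.479%).

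Among members, the interferon-induced genes *Isg15* and *Ifit3* were lower in PEP-619WW, and *Klf2*, *Bcl2* and *S1pr1*, which act in resting and recirculating T cells, were higher. These last 3 were the only ones of 21 measured naive and homing genes over 1.5-fold higher, and that list as a whole gave no stable direction. For each gene the UMIs of all members were summed per library and divided by the members' total UMIs, and the log2 ratio is PEP-619WW over PEP-WT. Of 1723 genes outside the rule with at least 50 UMIs over both libraries, 144 (8.36%) were over 1.5-fold higher in PEP-619WW and 205 (11.9%) over 1.5-fold lower. The median log2 ratio was −0.02. Without the 3 deep members the same genes gave 125 higher and 146 lower, so part of the lower side came from those barcodes. At 100 UMIs or more, 166 of 748 genes had a counting interval that excluded 0 or no UMI in PEP-619WW and so no interval.

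**Figure D3:**
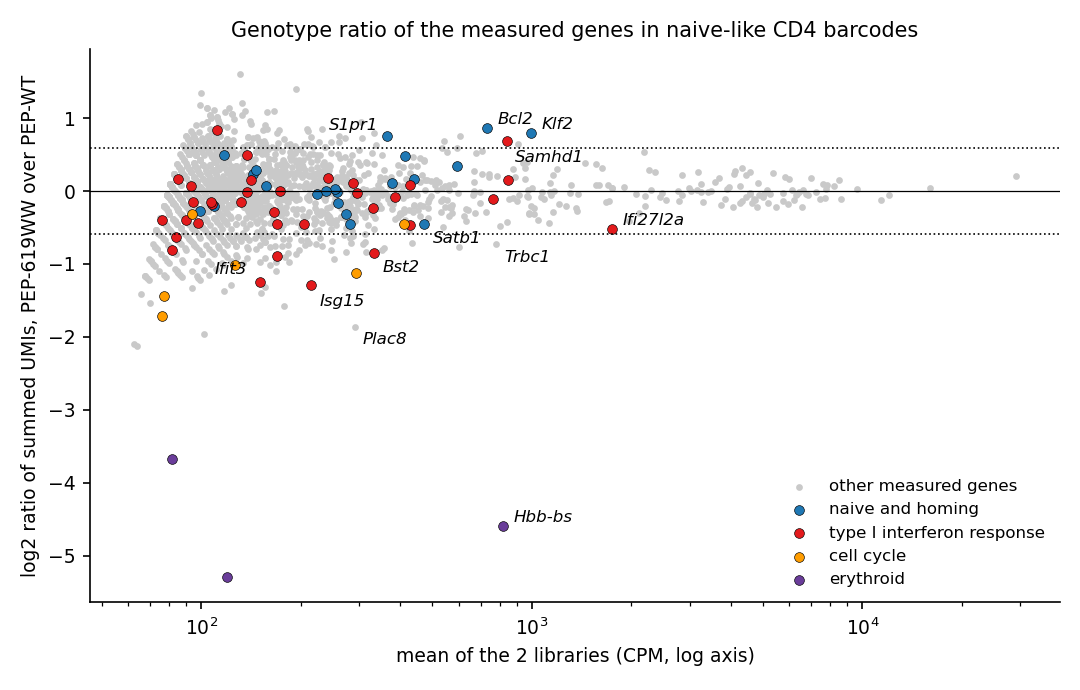
Log2 ratio of summed UMIs (PEP-619WW over PEP-WT, vertical axis) against the mean level of each measured gene (CPM, log axis), with genes of 4 lists in colour and dotted lines at 1.5-fold; genes at 0 in PEP-619WW are not drawn. *Isg15*, *Ifit3* and *Bst2* lie below the lower line, *Klf2*, *Bcl2*, *S1pr1* and *Samhd1* above the upper line, and the hemoglobin genes far below.

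*Isg15*, whose product is a ubiquitin-like protein joined to other proteins in infected cells, had 141 UMIs in PEP-WT and 21 in PEP-619WW, 305 against 125 CPM. The log2 ratio was −1.29 (−2.02 to −0.62), and −1.32 without the deep members. At 1500 UMIs per barcode it was detected in 51 of 165 PEP-WT members (30.9%, 24.0 to 38.6) and 8 of 51 PEP-619WW members (15.7%, 7.02 to 28.6), and these intervals overlap. *Ifit3*, which encodes an RNA-binding antiviral protein, had 98 and 15 UMIs, 212 against 89.3 CPM, with a ratio of −1.25 (−2.14 to −0.46) and −1.44 without the deep members. Both genes were spread over many barcodes, with at most 10 UMIs of *Isg15* and 8 of *Ifit3* in any member. Reads of *Ifit3* and its near-identical copy *Ifit3b* may be split by the counting, so its level is uncertain. *Bst2*, which encodes the virus-tethering protein tetherin, stood at 428 and 238 CPM, −0.85 (−1.38 to −0.35), and at −0.61 without the deep members, 1 of which held 35 of its 198 PEP-WT UMIs. *Samhd1*, which encodes an enzyme that depletes nucleotides, went the other way, at 645 and 1036 CPM, 0.68 (0.41 to 0.96), and 0.54 without the deep members.

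These 4 genes are shown with their promoters, since the type I interferon genes share a DNA element. The RefSeq windows run from 250 bases before to 50 after the transcription start, on GRCm38.p6 (mm10), and are read along the gene. Capitals mark the letters GAAANNGAAA, the core of the interferon-stimulated response element, on either strand (TTTCNNTTTC on the other), with overlapping matches counted. *Isg15* has 3 matches and its window lies at chr4:156200769-156201068 on the minus strand, *Ifit3* has 2 in chr19:34583279-34583578 on the plus strand, *Bst2* has 2 in chr8:71537423-71537722 on the minus strand, and *Samhd1* has none in chr2:157135047-157135346 on the minus strand.
Isg15: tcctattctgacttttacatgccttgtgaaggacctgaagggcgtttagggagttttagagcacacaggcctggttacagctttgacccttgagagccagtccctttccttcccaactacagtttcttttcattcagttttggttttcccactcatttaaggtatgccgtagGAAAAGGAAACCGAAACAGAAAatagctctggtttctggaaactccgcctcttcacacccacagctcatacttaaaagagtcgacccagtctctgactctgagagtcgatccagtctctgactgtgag
Ifit3: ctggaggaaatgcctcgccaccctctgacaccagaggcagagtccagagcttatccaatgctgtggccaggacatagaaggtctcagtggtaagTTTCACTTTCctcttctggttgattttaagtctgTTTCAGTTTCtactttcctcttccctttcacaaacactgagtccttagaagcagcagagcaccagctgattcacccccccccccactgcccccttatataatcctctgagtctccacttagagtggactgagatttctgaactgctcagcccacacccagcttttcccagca
Bst2: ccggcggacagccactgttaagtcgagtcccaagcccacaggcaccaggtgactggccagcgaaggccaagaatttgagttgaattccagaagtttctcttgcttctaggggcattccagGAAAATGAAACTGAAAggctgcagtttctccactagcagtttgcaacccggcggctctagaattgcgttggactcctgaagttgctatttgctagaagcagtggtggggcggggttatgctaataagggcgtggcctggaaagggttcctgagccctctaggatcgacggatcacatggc
Samhd1: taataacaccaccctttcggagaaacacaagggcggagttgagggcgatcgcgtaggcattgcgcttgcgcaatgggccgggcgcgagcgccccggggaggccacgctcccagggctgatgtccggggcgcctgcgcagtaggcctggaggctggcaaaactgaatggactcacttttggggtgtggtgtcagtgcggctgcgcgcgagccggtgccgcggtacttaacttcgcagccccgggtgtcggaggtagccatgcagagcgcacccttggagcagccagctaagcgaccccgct
The matches of *Isg15* start 78, 72 and 66 bases before the transcription start. The letters occurred in 3.44% of all 32851 RefSeq windows, in 81 of the 1377 measured genes with a window (5.88%) and in 16 of the 27 measured interferon-list genes with one (59.3%). Of the 6 list genes over 1.5-fold lower, 5 held a match and *Ifi35* did not. Of the 2 over 1.5-fold higher, *Stat2* held a match. A match is a description of the letters, not evidence of binding.

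Over the whole type I interferon list, 34 of 52 genes were measured, of which 6 were over 1.5-fold lower in PEP-619WW and 2 higher, against 11.9% lower and 8.36% higher over all measured genes. The median log2 ratio was −0.15, beside −0.02 over all genes. Beyond those above, the lower genes were *Ifi213*, a nucleic acid sensor gene with 102 and 20 UMIs (−0.89, −1.66 to −0.19), and *Ifi35* and *Ifit1bl1*, at −0.80 and −0.63 with intervals that include 0. *Stat2*, a signal transducer of the pathway itself, was higher on 37 and 24 UMIs (0.84, 0.03 to 1.62). *Ifi27l2a*, the list gene with the most UMIs, stood at 2066 and 1435 CPM, −0.53 (−0.74 to −0.32) and −0.56 without the deep members, short of 1.5-fold. *Slfn2*, a quiescence gene of T cells, gave −0.47 (−0.91 to −0.06). The other measured genes lay between *Irf7* at −0.45 and *Ifi208* at 0.49, among them *Slfn5* at −0.45, *Ifit1* at −0.02 and *Ly6a* at 0.15, and all of their intervals included 0. The summed list stood at 11062 and 9686 CPM, −0.19 (−0.27 to −0.11), and at −0.29 without the deep members. Counted again without those members, 10 of 33 list genes were over 1.5-fold lower and 1 higher, against 7.52% and 7.06% of all genes. The list thus leaned to the lower side, with *Isg15* and *Ifit3* as the only members over 2-fold. *Samd9l*, an interferon-inducible antiviral gene outside the list, was also lower on 106 and 18 UMIs, −1.10 (−1.91 to −0.37).

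The level of *Isg15* in the libraries moved with genotype as it did in the members, and the part of free RNA in the members' values was not tested. The library level of *Isg15* was 470 CPM in PEP-WT and 172 in PEP-619WW, and members stood at 64.9% and 72.9% of it. *Isg15* was also lower in PEP-619WW in the barcodes with *Cd79a* and no *Cd3e*, at −1.35 (−1.41 to −1.30). In these barcodes *Ifit3* stood at −1.07, *Ifi213* at −0.96, *Ifi27l2a* at −0.80 and *Samd9l* at −0.71, and the whole interferon list at −0.57 (−0.58 to −0.56), further below 0 than in the members. These 5 genes were thus lower in these barcodes as well as in the members. The barcodes with *Cd79a* and no *Cd3e* were not pure B cells, and their make-up differed between PEP-WT and PEP-619WW. *S100a8* stood at 722 and 1275 CPM in them and *Jchain* at 3760 and 5258, but *Ms4a1* at 606 and 372 and *Hbb-bs* at 2698 and 316. The part of this in their ratios was not tested. *Bst2* and *Samhd1* stood at −0.19 and −0.08 there, and *Klf2*, *Bcl2* and *S1pr1* at −0.15, −0.44 and −0.11. *Cd28*, *Pim1* and *Lnpep*, which are among the genes with the highest ratios in the members, were higher in these barcodes too, at 0.74 (0.62 to 0.86), 0.36 (0.31 to 0.41) and 0.25 (0.19 to 0.32).

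Neighbouring signalling lists were counted in the same way. Of 27 measured genes of the interferon gamma response and class I presentation, 1 was higher and 3 lower past 1.5-fold, against 8.36% higher and 11.9% lower of all measured genes, and their summed ratio was −0.03 (−0.09 to 0.04), and −0.07 without the deep members. *Psmb9*, an immunoproteasome subunit, stood at −0.72 (−1.17 to −0.29) and *Psmb10*, another, at −0.64 (−1.20 to −0.12), with −0.60 and −0.53 without those members, while *B2m*, the light chain of class I molecules, stood at 0.26 (0.09 to 0.42) and the GTPase gene *Irgm2* at 0.94 (0.11 to 1.75). None of the 5 measured genes of the interferon receptors and their signalling passed 1.5-fold, with a summed ratio of 0.12 (−0.09 to 0.31).

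The naive and homing list had 21 measured genes outside the rule, of which 3 were over 1.5-fold higher in PEP-619WW and none lower, against 8.36% higher and 11.9% lower over all measured genes. Without the 3 deep members 2 were higher and 2 lower, and with thinned counts 2 of 15 were higher and 2 lower. Ratios after thinning, here and below, are from the 116 PEP-WT and 40 PEP-619WW barcodes that met the rule again on thinned counts. They are not the same set as the members. *Klf2*, the transcription factor that switches on exit and homing receptors, had 336 and 211 UMIs, 727 against 1256 CPM, with a log2 ratio of 0.79 (0.53 to 1.04) and 0.63 without the deep members. *S1pr1*, the receptor by which T cells leave lymphoid organs, had 126 and 77 UMIs, 273 against 458 CPM, 0.75 (0.32 to 1.17) and 0.58 without the deep members, just under 1.5-fold. *Bcl2*, which protects resting lymphocytes from death, had 241 and 159 UMIs, 521 against 947 CPM, 0.86 (0.56 to 1.16) and 0.68 without them. On GRCm38.p6 *Klf2* lies at chr8:72319062-72321654, *S1pr1* at chr3:115710433-115715055 and *Bcl2* at chr1:106538176-106714290. All 3 were higher in the PEP-619WW members with intervals apart from 0, and no member held more than 14 UMIs of any of them. *Klf2* was detected in 63.6% of PEP-WT and 72.5% of PEP-619WW members at 1500 UMIs, *Bcl2* in 47.3% and 64.7%, and *S1pr1* in 33.9% and 39.2%, and for each of the 3 the exact intervals of both libraries overlap.

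The other naive genes did not share that size of difference. *Tcf7* stood at 0.35 (0.01 to 0.68), and at 0.20 without the deep members, and *Ccr7*, the chemokine receptor for the T cell zone, at 0.00 (−0.56 to 0.54) with 238 CPM in both. *Satb1*, a chromatin organizer of naive T cells, was lower, 547 against 399 CPM, −0.46 (−0.87 to −0.06), and −0.62 without the deep members. The list's median was 0.07 and its summed ratio 0.26 (0.16 to 0.35). That sum fell to 0.10 (0.00 to 0.19) without the deep members and to −0.03 with thinned counts, so the list as a whole gave no stable direction. *Il7r* and *Lef1*, which chose the members, stood at 1001 and 1387 and at 640 and 673 CPM, and *Cd3e* at 562 and 530, as description only.

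Among the T cell receptor complex and its proximal signalling genes, 21 were measured outside the rule, with 1 higher and 1 lower past 1.5-fold, against 8.36% higher and 11.9% lower of all measured genes, and a summed ratio of −0.03, or −0.13 without the deep members. The lower gene was *Trbc1*, 1 of 2 alternative constant segments of the beta chain, with 449 and 99 UMIs, 971 against 589 CPM, −0.72 (−1.05 to −0.40) and −0.78 without the deep members. *Trbc2*, the other segment, stood at 1763 and 1596 CPM, −0.14 (−0.35 to 0.06). A T cell uses only 1 of the 2 segments, their sequences are nearly identical and the counting may split reads between them, so both levels are uncertain. The higher gene was *Cd28*, the main co-stimulatory receptor, with 69 and 45 UMIs and a ratio of 0.84 (0.27 to 1.41), and 0.72 without the deep members. *Trac* stood at 0.09 (−0.26 to 0.43), *Cd3d* at −0.30 (−0.58 to −0.03), *Cd4* at 0.54 (−0.16 to 1.21) and *Lck*, the kinase that PEP acts on, at 0.02 (−0.44 to 0.46).

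*Ptpn22* itself had 50 UMIs in 46 PEP-WT members and 19 in 15 PEP-619WW members, 108 against 113 CPM, with a ratio of 0.06 (−0.78 to 0.85). The mutation changes an amino acid and not the gene's presence, so this level does not check the labels. *Csk*, the kinase partner that binds PEP, had 48 and 23 UMIs, 0.40 (−0.38 to 1.14). Of the 4 measured genes of *Ptpn22* and its partners, none was over 1.5-fold higher and 1 lower, against 8.36% and 11.9% of all measured genes. The lower gene was *Cbl*, a ubiquitin ligase gene, at −0.61 (−1.49 to 0.20), but 0.37 after thinning and 0.0594 among members with *Cd4*. At this depth differences below about the width of these intervals were not detectable. None of the 4 measured activation genes passed 1.5-fold, with a summed ratio of −0.02 (−0.28 to 0.24). Of the 15 measured immediate early genes, 2 were over 1.5-fold higher, against 8.36% of all measured genes. They were *Fos* at 0.65 (−0.22 to 1.49), and 0.34 without the member of each library richest in it, and *Zfp36l2*, an RNA decay factor gene, at 0.68 (0.33 to 1.03), which stood at −0.13 after thinning.

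The remaining large ratios fell into a few groups. In the cell cycle list 4 of 6 measured genes were over 1.5-fold lower, against 11.9% of all measured genes, with a summed ratio of −1.04 (−1.29 to −0.80), but −0.41 without the deep members and 0.07 after thinning. The chromatin protein gene *Hmgb2* stood at −1.12, at −0.45 without the deep members and at 0.50 after thinning, and 56 and 26 of its 186 PEP-WT UMIs were in 2 of those members. *Smc4*, a condensin subunit gene, stood at −1.57 (−2.46 to −0.80) and −1.51 without the deep members. *Mpo*, *Prtn3* and *Ctsg* had 259, 185 and 146 UMIs in PEP-WT and none in PEP-619WW, at least 31.4-fold, 22.4-fold and 17.7-fold lower at a floor of 3 UMIs over the group, and all but 2 of them came from the deepest member. *Plac8* went from −1.87 to −0.17 without the deep members and to 0.26 after thinning. The erythroid list stood at −4.41, with 610 of 728 *Hbb-bs* UMIs in 1 PEP-WT member, beside library levels of 8038 and 946 CPM.

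Subunit genes of the respiratory chain and the proteasome, groups taken by symbol after their values were seen, leaned to the lower side. Of 68 measured subunits of the respiratory chain and ATP synthase encoded in the nucleus, 19 were over 1.5-fold lower and 2 higher, against 11.9% and 8.36% of all measured genes, with a summed ratio of −0.26 (−0.32 to −0.19), and −0.09 without the deep members. *Uqcrb* and *Ndufb5*, of complexes III and I, stood at −1.40 and −1.01, and *Lamtor2*, a lysosomal scaffold for mTORC1, at −1.32, with −1.21, −0.86 and −1.30 without those members. Of 22 proteasome genes, 7 were lower and none higher, −0.38 (−0.49 to −0.26), and −0.22 without the deep members. The immunoproteasome genes *Psmb9* and *Psmb10*, given above with the interferon gamma list, are among these 7. The 12 measured mitochondrially encoded genes, which encode subunits of the same respiratory complexes and ATP synthase, stood on the other side at 0.23 (0.18 to 0.28) and the 77 ribosomal protein genes at −0.01.

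Among genes with at least 100 UMIs the 12 with the highest ratios were *Resf1*, *Bcl2*, *Irf2*, *Cd28*, *Lnpep*, *Pim1*, *Klf2*, *Gimap3*, *Inpp4b*, *S1pr1*, *Klf3* and *Apobec3*. *Resf1*, a repressor of retroelements, led with 96 and 67 UMIs, 0.94 (0.47 to 1.41). *Irf2*, which encodes a factor that can repress interferon-induced genes, stood at 0.86 (0.31 to 1.39), with 164 against 298 CPM. *Pim1*, a survival kinase gene, stood at 0.79, *Gimap3*, a GTPase gene of lymphocyte survival, at 0.75, *Klf3* at 0.74 and the antiviral deaminase gene *Apobec3* at 0.73. All 12 stayed between 0.58 and 0.81 without the deep members and their intervals still excluded 0. In the Th1 and effector list 4 of 8 measured genes were over 1.5-fold lower and none higher, against 11.9% and 8.36% of all measured genes, but its summed ratio was 0.21 (0.07 to 0.35), and 0.27 without the deep members. Of the 4, *S100a6* and *Lgals1* stood at 0.97 and 0.062 with *Il7r* and *Lef1* of at least 3, and after thinning *S100a6* stood at 3.41 and *Ifngr1* at 0.12, so the count had no stable direction. *Ms4a4b*, a membrane protein gene of T cells, stood at 0.37 (0.16 to 0.57).

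The same genes were then compared in the follicular helper-gene, Th1-gene and naive-like CD8 gates. *Klf2* stood at −0.08 in the follicular helper-gene gate, −0.57 in the Th1-gene gate and 0.29 in the naive-like CD8 gate, and its ratio in naive-like CD4 members exceeded these by 0.87 (0.35 to 1.39), 1.35 (0.97 to 1.74) and 0.50 (0.07 to 0.92). The difference to the Th1-gene gate was 0.84 without barcodes over 10000 UMIs. *Bcl2* exceeded the follicular helper-gene and naive-like CD8 gates by 1.01 (0.47 to 1.54) and 1.05 (0.39 to 1.70), and the Th1-gene gate by 0.42 with an interval that includes 0. *Isg15* stood at −0.44, 0.38 and −0.02 in the 3 gates, and its ratio in naive-like CD4 members differed from these by −0.85 (−1.60 to −0.09), −1.67 (−2.45 to −0.88) and −1.27 (−2.15 to −0.39). After thinning the first of these was 0.23, so the order against the follicular helper-gene gate turned, and the second was −0.80. Thinning also changed which barcodes met each gate. The whole interferon list gave differences of 0.14, 0.02 and −0.11, and of 0.35, 0.38 and 0.36 after thinning. With *Il7r* and *Lef1* of at least 2 asked of the first 2 gates as well, which left 28 and 24 follicular helper-gene and 22 and 26 Th1-gene barcodes, the differences for *Klf2* were 0.65 (0.01 to 1.29) and 1.15 (0.60 to 1.70), for *Isg15* −2.23 (−3.12 to −1.33) and −0.51 (−1.55 to 0.54) and for the interferon list −0.59 (−0.71 to −0.46) and 0.14 (0.00 to 0.27). The order of the list against the follicular helper-gene gate thus turned with that clause. *Ifi27l2a* was lower in all 4 gates. *Trbc1* was lower in naive-like CD4 members and higher in each other gate, at 0.43, 0.52 and 0.82, with differences of −1.15 (−1.51 to −0.79), −1.24 (−1.63 to −0.86) and −1.54 (−1.98 to −1.10). The second of these was −0.54 after thinning. The naive-like CD8 gate rests on 20 PEP-619WW barcodes, and 28 of its 146 PEP-WT barcodes were admitted by a single *Cd8* UMI.

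**Figure D4:**
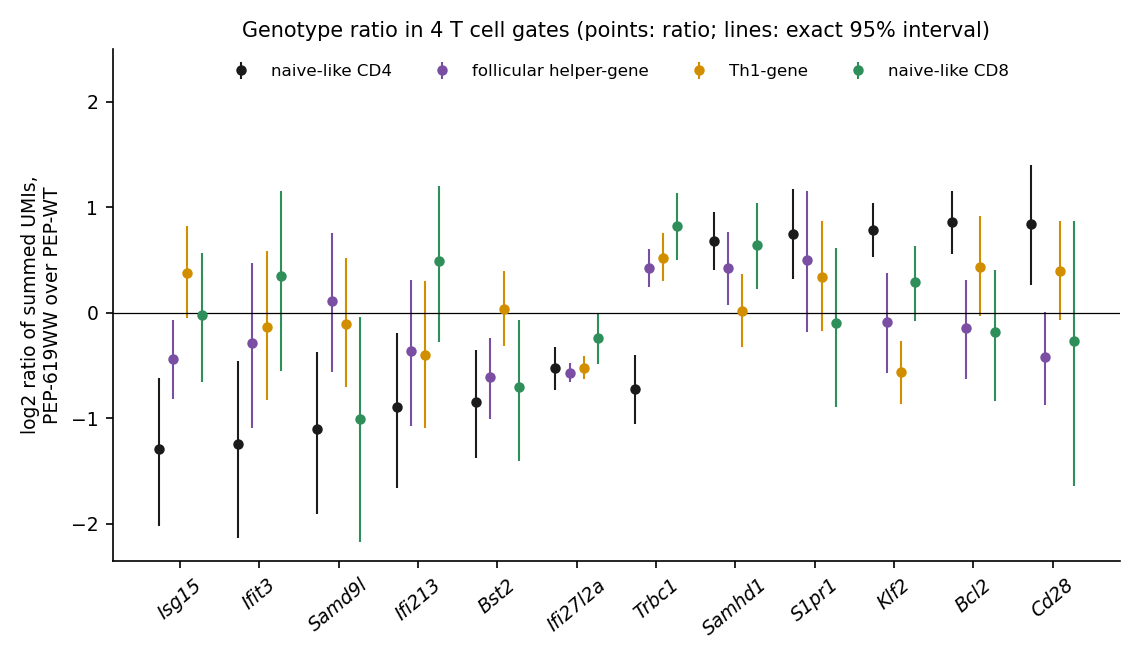
Log2 ratio (PEP-619WW over PEP-WT, vertical axis) of 12 genes in the naive-like CD4 members and 3 comparison gates; lines are exact counting intervals of 95%. *Isg15* is lowest in the naive-like CD4 members at −1.29, *Klf2* highest there at 0.79, and *Trbc1* is below 0 in these members alone.

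Against the follicular helper-gene and Th1-gene gates together, the members' own profile was led by *Ly6c1*, which encodes a surface protein of resting T cells, with *Igfbp4*, *Ccr7* and *Arl4c* also near its top. These levels are a description, since the cells were chosen by related genes. *Ly6c1* stood at 324 CPM in PEP-WT members and 238 in PEP-619WW members, against 21.6 and 5.97 in the other gates. It was detected in 47.8% and 36.8% of members and in at most 5.63% of barcodes of any comparison gate, the naive-like CD8 gate included. Its neighbour *Ly6c2* is a near-identical copy. *Igfbp4*, an insulin-like growth factor binding protein gene, exceeded the follicular helper-gene and Th1-gene gates by 3.60 and 4.16 on the log2 scale, and *Ccr7* by 3.60 and 2.69. Also among the 15 genes most above those gates were the glucocorticoid-induced *Tsc22d3* at 2.22 and 2.47, the metabolic brake *Txnip* at 2.58 and 1.90, the cytokine signalling inhibitor *Socs3* at 1.85 and 2.81, the kinase gene *Txk* at 1.97 and 1.83, and 3 interferon-inducible GTPase genes. Of these, *Gbp4* stood at 2.28 and 1.87, *Igtp* at 1.86 and 1.97 and *Gbp2* at 1.68 and 2.06. *Bcl2*, by comparison, exceeded those gates by 1.44 and 2.15 and *Klf2* by 1.24 and 2.03, and *Ptpn22* was lower than in them, by −0.77 and −1.02.

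Members varied among themselves. The summed interferon list per barcode ranged from 2938 to 38510 CPM in PEP-WT, with a median of 10061, and from 2519 to 31579 in PEP-619WW, with a median of 9328. The ranges of both libraries overlap. The naive list per barcode had medians of 7070 and 8367. Of the genes that chose the members, *Il7r* and *Lef1* were both present in 109 PEP-WT and 43 PEP-619WW members, *Il7r* alone in 39 and 9, and *Lef1* alone in 30 and 5, and their summed UMIs had medians of 3 and 5. In members with both genes *Klf2* stood at 711 CPM in PEP-WT and 1364 in PEP-619WW and *Bcl2* at 529 and 1099, whereas in members with *Lef1* alone *Bcl2* stood at 480 and 113, the latter on 2 UMIs in 5 barcodes. Members with a *Cd4* UMI, 50 and 21, had *Klf2* at 635 and 1286 and *Isg15* at 234 and 98.9, the same order between genotypes as members without *Cd4*, at 776 and 1235 for *Klf2* and 343 and 144 for *Isg15*.

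**Figure D5:**
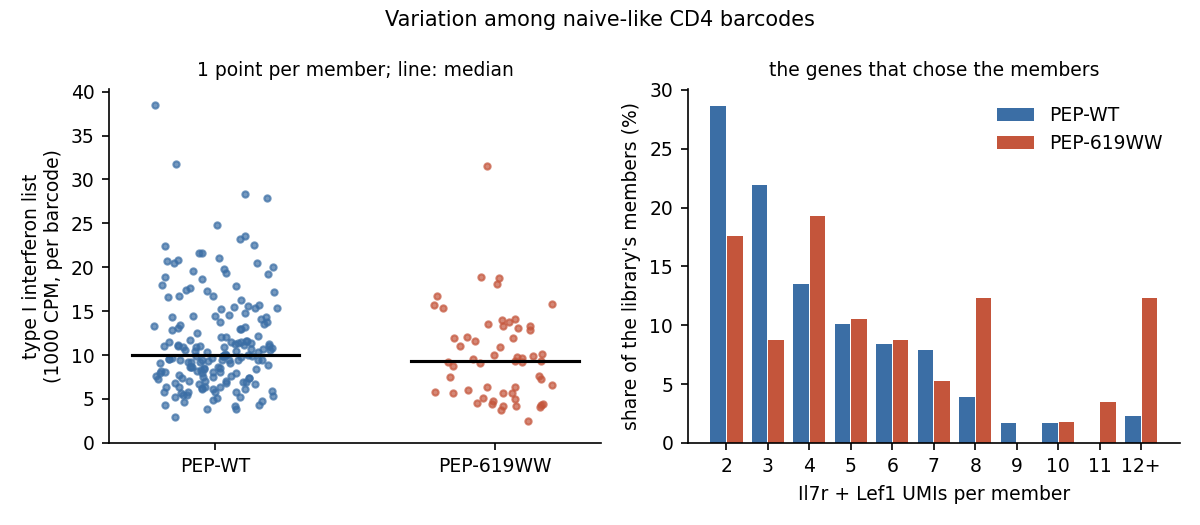
Left, summed type I interferon list per member (1000 CPM; line, median); right, share of each library's members (percent) by the number of *Il7r* and *Lef1* UMIs that chose them. Medians of 10061 and 9328 CPM lie within overlapping clouds, and PEP-619WW members carried more *Il7r* and *Lef1* UMIs, with a median of 5 against 3.

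At the threshold of the rule, 51 PEP-WT and 10 PEP-619WW members had exactly 2 UMIs of *Il7r* and *Lef1*, and 57 and 7 barcodes that met every other clause had 1. In PEP-WT, those just inside had 650.7 CPM of *Tcf7*, 505 of *Bcl2* and 666 of *Klf2*, and those just outside 405, 382 and 787. *Nkg7* stood at 45.9 inside and 70.1 outside, and at 197 in barcodes with neither gene. For each of these 4 genes the counting intervals just inside and just outside the threshold overlapped. They did not overlap for the interferon list, at 11285 CPM inside (10716 to 11876) and 12733 outside (12123 to 13366), nor for *S100a4*, at 812 (664 to 981) and 358 (262 to 478), with 80 of its 106 UMIs just inside in 1 barcode. In PEP-619WW, on 10 and 7 barcodes, the list stood at 8447 inside (7382 to 9623) and 14119 outside (12436 to 15966). *S100a4* stood at 74.8 and 278 there, with overlapping intervals.

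In the second deposited run the rule found 72 of 11029 PEP-619WW barcodes and 0 of 9539 PEP-WT barcodes, so it gave no ratio. That PEP-WT library held 72 barcodes with *Cd3e* in all, and its last 7 candidates were removed by the clause on *Csf1r* and *Lyz2*. In the 72 PEP-619WW members *Klf2* stood at 788 CPM, *Bcl2* at 173, *Isg15* at 44.6 and *Ifi27l2a* at 823, with *Cd4* in 37.5% and *Trdc* in 9.72% of them. All 4 were lower there than in the PEP-619WW members of the main run, at 1256, 947, 125 and 1435, and *Bcl2* was also below the 521 of PEP-WT members.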

How the data were processed

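Droplet libraries (10x 3' chemistry) of sorted CD45+ spleen cells were counted by the authors with Cell Ranger (6.0.0 per the labels; the study's methods name another release) on mm10. The deposited values are raw UMI counts, not normalized, for 32285 genes per barcode, of which 32158 matched a current symbol. The labels give the genotype, the study the tissue, and no source used here states how the 2 deposited runs relate. The barcode numbers and median genes in the study's methods are those of the second run (9539 and 11029 barcodes, medians of 1709 and 1477 genes), not of the run the rule names (14821 and 8576, 1139 and 1298), which was used. The second run is an alternative, not a replicate. The follicular helper-gene and Th1-gene gates leave out the clause on *Il7r* and *Lef1*, and an alternative keeps it. No filter on cells and no doublet caller was applied. The members, the 22 gene lists (359 genes, 2 unmatched) and the comparisons were chosen with earlier results of these data known.

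UMIs were summed over members and divided by the members' total to give CPM. Ratios have exact conditional binomial intervals, shares Clopper-Pearson, differences of shares Newcombe and differences of ratios Wald intervals, all for counting error only. Named genes were the list genes with at least 50 UMIs, the 12 highest and 12 lowest ratios with at least 100 UMIs and an interval that excludes 0 (*Igkc*, *Ighg2c* and hemoglobin genes apart), and the 15 genes most above the follicular helper-gene and Th1-gene gates in both libraries. *Mpo*, *Prtn3* and *Ctsg*, with no UMI in PEP-619WW, have no interval and were placed among the lowest. *Samhd1* and the other genes whose promoters are printed, the groups of genes taken by symbol and *S100a4* were chosen after their values were seen. Thinning drew 1500 UMIs per barcode without replacement (seed 11). For shares of gates and for ratios after thinning, the rule was applied again to the thinned counts, so the barcodes changed. Detection of genes at 1500 UMIs kept the original members with at least that depth. Motifs were searched in RefSeq promoter windows. Scripts ran in Python 3.11.15 with numpy 2.4.6, scipy 1.17.1, pandas 2.3.3 and matplotlib 3.10.9, and were tested on simulated counts. Some genes of the lists are not reported here, though the counts and sums over the lists include them.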

Additional observations from a re-analysis of the deposited data

Results flagged for a closer look

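The ratios of PEP-619WW over PEP-WT below had opposite signs in naive-like CD4 members and in a comparison gate, with both counting intervals apart from 0. With 1 library per genotype none of these differences was tested against replicates. Values are the log2 ratio in members minus that in the gate.

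*Trbc1*, the beta chain constant segment, differed by -1.15 from the follicular helper-gene gate, by -1.24 from the Th1-gene gate and by -1.54 from the naive-like CD8 gate. Against the Th1-gene gate, *Klf2* differed by 1.35, its relative *Klf3* by 1.63 and the naive and homing list by 0.41. Without barcodes over 10000 UMIs, *Klf2* differed by 0.84 and the list by 0.0353. *Plac8* differed by -2.19 from the same gate, with 154 of its 211 PEP-WT member UMIs in 1 barcode, and *Rgs10*, a regulator of G protein signalling, by -1.56. With the rule applied again to thinned counts, which changed the barcodes, the naive-like CD4 ratios of both turned. They were 0.26 for *Plac8* and 0.31 for *Rgs10*. *Cd3d* differed by -0.53 from the follicular helper-gene gate. *Ms4a4b* differed by 0.64 from the follicular helper-gene gate and by 0.61 from the Th1-gene gate.

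The second run, which the comparisons do not use, held 72 members of the gate in PEP-619WW against 0 in PEP-WT.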

How the results depend on the processing

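Of 214 results, each recomputed under those of 21 alternatives that gave it at least 20 UMIs, 15 of them planned and 6 added after the data were seen, 2218 values were obtained. *Isg15* stayed between -1.46 and -1.04, *Ifit3* between -1.70 and -1.04, *S1pr1* between 0.48 and 0.83 and *Trbc1* between -0.86 and -0.39. No paired analysis was possible because each genotype is 1 library, and for the same reason no replicate could be left out. The second run gave no ratio, having 0 PEP-WT members. Depth limits most genes, since under 20 UMIs in PEP-619WW leave an interval of over 1.5 on the log2 scale for *Ifit3* and *Ptpn22*.

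Counts of genes past the fold, main 144 higher and 205 lower, were 33 and 100 among the 50 and 21 members with *Cd4*, 34 and 47 after thinning (116 and 40 members), 94 and 104 without the deepest 10%, 4 and 8 among the 11 and 2 members with no UMI of other-cell genes, 600 and 705 at a minimum of 20 UMIs, 9 and 14 at 200, and 21 and 51 at 2-fold. Higher genes were 77 with *Il7r* and *Lef1* of at least 3, and lower genes 114 without the 3 members over 10000 UMIs. Fewer or more genes were tested under each but the 2-fold setting. The setting with no UMI of other-cell genes used the B cell, plasma cell, myeloid, neutrophil and erythroid lists. It left out *Cd74*, *Igkc*, *S100a8*, *S100a9* and the hemoglobin genes, so its members may still hold UMIs of these. The main shares were 8.36% higher and 11.9% lower of 1723 genes. With *Cd4* they were 6.30% and 19.1% of 524, and after thinning 6.48% and 8.95% of 525. Without the deepest 10% they were 7.53% and 8.33% of 1249, and with no UMI of other-cell genes 4.71% and 9.41% of 85. At 20 UMIs they were 14.3% and 16.8% of 4191, at 200 UMIs 2.92% and 4.55% of 308, and at 2-fold 1.22% and 2.96%. The counts of 77 and 114 were 6.34% of 1215 and 7.52% of 1515.

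The naive and homing list, 0.26, was 0.48 among members with *Cd4*, -0.0254 after thinning, 0.15 as a mean per barcode, 0.13 without the deepest 10%, 0.92 with no UMI of other-cell genes and 0.10 without the members over 10000 UMIs. The interferon list, -0.19, was -0.74 with no UMI of other-cell genes and -0.29 without the members over 10000 UMIs. The share of members, -0.536 points, differed by -0.839 with *Il7r* and *Lef1* of at least 1, -0.0925 with *Cd4* required, 0.653 in the second run and at most -0.192 over 20 draws. Of *Cd3e* barcodes without *Cd8* genes it differed by -14.4, -1.48 and 8.22 points under the first 3 of these.

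After thinning, the *Isg15* ratio differed from the follicular helper-gene gate by 0.23 and from the Th1-gene gate by -0.80, *Trbc1* from the Th1-gene gate by -0.54, the interferon list from the 3 gates by 0.35, 0.38 and 0.36, and the naive list by -0.25 from the follicular helper-gene and 0.40 from the naive-like CD8 gate. Without barcodes over 10000 UMIs, the Th1-gene gate differed by 0.84 for *Klf2* and 0.0353 for the naive list. With *Il7r* and *Lef1* of at least 2 kept as a clause of the first 2 gates, *Isg15* differed by -2.23 from the follicular helper-gene and -0.51 from the Th1-gene gate, and the interferon list by -0.59 and 0.14. Thinning also turned *Plac8* (0.26), *Hmgb2* (0.50), *Cbl* (0.37), *Zfp36l2* (-0.13), *S100a6* (3.41), *Ifngr1* (0.12), *Rgs10* (0.31), *Gbp5* (0.21), *Hsp90aa1* (1.06), the cell cycle list (0.0671) and the stress list (0.031). *Cbl* was 0.0594 among members with *Cd4*. With *Il7r* and *Lef1* of at least 3, *S100a6* was 0.97 and *Lgals1* 0.062. The stress list was 0.00373 without the deepest 10% and 0.14 with no UMI of other-cell genes. The causes were not tested.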

Other observations

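The gamma delta T cell list had 16 UMIs, in 7 members, in PEP-WT and none in PEP-619WW. *S100a4* had 111 and 40 UMIs, of which 80 and 30 were in 1 barcode of each library. Its ratio was -0.01 with every member and 1.74 (1.01 to 2.48) without the 3 PEP-WT members over 10000 UMIs, which takes out the PEP-WT barcode and leaves the PEP-619WW one. Without the richest barcode of both libraries it was -0.15 (-1.34 to 0.92).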
